A study of Mus musculus with 15 samples.

Results

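The 9 genes described here restrain mitogen-activated protein (MAP) kinase signalling and were measured in maturing mouse thymocytes: Dusp1, Dusp2, Dusp4, Dusp5, Dusp6, Dusp10, Spry1, Spry2 and Spred1. They were taken by gene symbol in the annotation of the array, make up 9 of 18193 genes with a probe set, and all 9 were among the 11871 genes tested. RNA of sorted thymocytes from young adult C57BL/6 mice was hybridised to Affymetrix mouse arrays in 5 groups of 3 samples each. PreDP cells (CD69-TCRβ-) and PostDP cells (CD69+TCRβ+) were CD4 CD8 double-positive thymocytes before and after selection, both sorted from B2m-/- mice, which lack the light chain of MHC class I and so select CD4 T cells only. SM&M1 cells (Qa2-CD69+) and M2 cells (Qa2+CD69-) were the earlier and the later CD4 single-positive (CD4SP) thymocytes, both sorted from Rag2-GFP BAC transgenic mice with a gate against NK1.1, CD25 and GL3. Tak1-deficient SM&M1 cells (Qa2-CD69+) came from Tak1f/f CD4Cre mice, in which Cre expressed under Cd4 control deletes the kinase Tak1 (gene Map3k7) in thymocytes, and their reference was SM&M1 of the Rag2-GFP mice. Separate animals are not stated for the biological replicates of the labels, and p-values here rest on the spread of these samples alone, which may be technical.

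MAP kinases are switched on by phosphorylation of a threonine and a tyrosine, and dual-specificity phosphatases (Dusp) switch them off by removing both phosphates. Many of these phosphatases are themselves induced by the kinase they inactivate, which makes them feedback inhibitors, and Sprouty (Spry) and Spred proteins act further upstream, on the activation of Ras and Raf. In the thymus, signalling from the T cell receptor through Ras and ERK is required for positive selection, the step that lies between PreDP and PostDP.

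The windows around the start sites of 4 phosphatase genes are shown, 3 because they hold a match to a motif of a factor that acts downstream of MAP kinases or of cyclic AMP. The other is Dusp6, the member furthest above 0 in PostDP against PreDP, as a case with no match. The windows of Dusp10, Spry1 and Spred1 held no match either, and that of Spry2, which held 1, is not shown. Each window runs from 250 bases before to 50 bases after the annotated start, 5′ to 3′ on the strand of the gene, and is the RefSeq sequence of mouse assembly GRCm38.p6. Capitals mark the SRF CArG box in Dusp5, the CRE motif TGACGTCA in Dusp1 and the EGR motif GCGGGGGCG in Dusp2.
Dusp5, chr19:53528895-53529194, plus strand: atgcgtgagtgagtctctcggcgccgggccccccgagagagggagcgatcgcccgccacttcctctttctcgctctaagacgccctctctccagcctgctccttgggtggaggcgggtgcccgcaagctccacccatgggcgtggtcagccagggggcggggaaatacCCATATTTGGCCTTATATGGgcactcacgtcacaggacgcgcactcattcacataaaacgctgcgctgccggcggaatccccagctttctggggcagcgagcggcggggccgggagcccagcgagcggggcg
Dusp1, chr17:26508423-26508722, minus strand: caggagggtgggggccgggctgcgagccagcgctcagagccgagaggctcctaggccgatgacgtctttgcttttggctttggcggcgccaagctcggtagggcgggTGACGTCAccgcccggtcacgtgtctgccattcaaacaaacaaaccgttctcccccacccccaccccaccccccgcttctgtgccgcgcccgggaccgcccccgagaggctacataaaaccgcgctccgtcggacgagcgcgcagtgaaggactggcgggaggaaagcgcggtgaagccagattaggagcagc
Dusp2, chr2:127335909-127336208, plus strand: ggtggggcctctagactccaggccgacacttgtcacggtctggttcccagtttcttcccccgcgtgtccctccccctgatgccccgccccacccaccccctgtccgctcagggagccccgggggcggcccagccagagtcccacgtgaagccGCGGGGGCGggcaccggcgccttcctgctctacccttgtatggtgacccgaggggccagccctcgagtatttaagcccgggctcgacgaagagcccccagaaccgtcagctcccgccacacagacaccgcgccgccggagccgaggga
Dusp6, chr10:99262981-99263280, plus strand: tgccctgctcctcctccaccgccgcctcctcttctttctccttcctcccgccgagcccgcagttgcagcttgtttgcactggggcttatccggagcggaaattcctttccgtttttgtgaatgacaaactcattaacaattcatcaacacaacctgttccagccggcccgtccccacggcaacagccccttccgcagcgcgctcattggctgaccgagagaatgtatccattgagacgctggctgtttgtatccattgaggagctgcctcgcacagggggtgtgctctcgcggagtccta
Dusp5 held 2 CArG boxes next to each other, at -82 to -73 and -72 to -63 relative to the start. Of 32851 windows of the same length in the annotation, 1.63% held at least 1 CArG box and 6 (0.0183%) held 2 or more, a count made after the match was seen. Dusp1 held the CRE motif at -143 to -136 (1.79% of all windows), and Dusp2 the EGR motif at -98 to -90 (2.91% of all windows). Over the 8 members with a window in the table, on both strands, the shortened CRE motif TGACG was present in 3 (20.8% of all windows; in Dusp1 both at the full CRE and apart from it, at -191 to -187), and the ETS motif CCGGAA was present in Spry2, at 34 to 39 after the start (14.9% of all windows). The AP-1 motif TGACTCA (5.2% of all windows) and the second EGR motif searched, GCGTGGGCG (0.612% of all windows), were in none of the 8. These are matches of letters and describe the windows only. In the same assembly Dusp4 lies at chr8:34807610-34819894, Dusp10 at chr1:184034381-184075636, Spry1 at chr3:37639947-37644599, Spry2 at chr14:105891947-105896819 and Spred1 at chr2:117121071-117182279.

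Levels are given as log2(signal + 16), where signal is the deposited intensity of the gene's brightest probe set by its mean across 15 arrays, and differences are in the same log2 units, so they understate changes of dim genes. A gene was called where the adjusted p of limma was under 0.05, with Benjamini-Hochberg adjustment over all 11871 genes tested. One array, Tak1-deficient replicate 2, differed from the rest: its median signal was 167.81, against 80.52 to 121.46 elsewhere, and it correlated at 0.873 and 0.879 with its own group, whereas arrays of each other group correlated at 0.965 or more. Its summed signal of 6 thymic epithelium markers was 1742, against 418.2 to 727 elsewhere. Of these markers 3 were above the array median there, against 1 to 3 elsewhere, and the part of other cells in this array was not tested. The Tak1 genotype showed in its own gene: Map3k7 read 5.39 ± 0.65 in Tak1-deficient SM&M1 and 10.42 ± 0.03 in SM&M1 (SD, n = 3 each). B2m read 10.10 ± 0.07 in PostDP and 9.67 ± 0.11 in PreDP, below its 14.36 ± 0.33 in SM&M1. Both B2m-/- groups were double-positive cells, so B2m genotype and stage cannot be told apart in these B2m values. The T cell gene Cd3e averaged between 12.95 and 13.06 in the 5 groups. The summed signal of 12 macrophage and other myeloid markers was 1035, 5514 and 6242 in the Tak1-deficient arrays, 4824 in the first M2 array and 4500 in the first SM&M1 array, against 457.1 to 953.1 in the other 10 arrays. In the arrays with sums of 4500 or more, 6 to 9 of the 12 markers were above the array median. Tak1-deficient replicate 1, at 1035, had 5 above it, against 2 to 4 in the other 10. C1qa, a complement gene of macrophages, was above it in 1 of all 15 arrays.

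**Figure D1:**
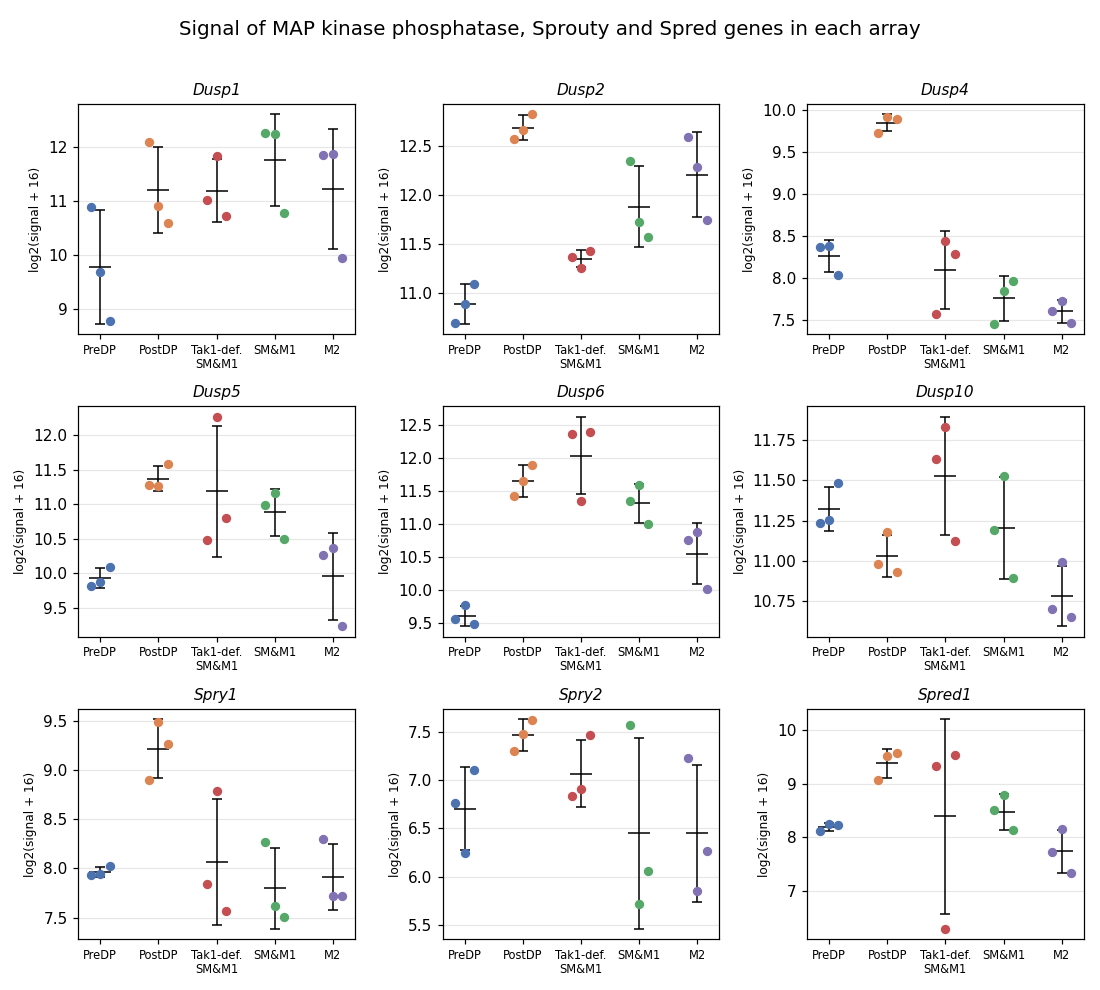
Level of each of the 9 genes, as log2(signal + 16), in every array of PreDP, PostDP, Tak1-deficient SM&M1, SM&M1 and M2; points are arrays, the horizontal bar is the group mean and the error bar is the SD (n = 3), and each panel has its own vertical range. Dusp4 and Spry1 stand highest in PostDP, Dusp6 is lowest in PreDP, and 1 Tak1-deficient array lies far below the others for Spred1.

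In the first comparison 5 of the 9 genes rose in PostDP over PreDP and none fell. They were the nuclear phosphatases Dusp2, Dusp4 and Dusp5, the cytoplasmic ERK phosphatase Dusp6, and Spry1, with rises of 2.38 to 4.14-fold. Of all genes tested, 14.9% were called in either direction and 7.35% as higher in this comparison. The median difference of the 9 genes was 1.41, against 0.01 over all genes tested. In bulk RNA, fewer cells of a type and less RNA per cell cannot be told apart.

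Dusp6, whose product acts on ERK in the cytoplasm, read 11.41, 11.64 and 11.89 in PostDP, against 9.55, 9.76 and 9.48 in PreDP. All 3 PostDP arrays were over the highest PreDP array, and the difference of 2.05 ± 0.29 (SE) had an adjusted p of 0.000353 in limma. Dusp2, a nuclear phosphatase known from activated T cells, read 12.57, 12.67 and 12.83 in PostDP, against 10.69, 10.88 and 11.09 in PreDP. The groups did not overlap and differed by 1.81 ± 0.24 (adjusted p = 0.000157, limma). Dusp4, a nuclear phosphatase of ERK, JNK and p38, read 9.73, 9.91 and 9.89 in PostDP, against 8.36, 8.38 and 8.03 in PreDP. It differed by 1.59 ± 0.22 (adjusted p = 0.000247, limma), again with no overlap.

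Dusp5, a nuclear phosphatase specific for ERK, read 11.28, 11.26 and 11.58 in PostDP, against 9.81, 9.88 and 10.09 in PreDP. The gap between the groups was wider than the spread within either of them, at 1.45 ± 0.40, yet its adjusted p of 0.0267 (limma) went to between 0.0515 and 0.0976, with differences of 1.34 to 1.53, whichever of these 6 arrays was left out. Without the outlying Tak1-deficient array, in which Dusp5 read 12.27, the SE was 0.27 and the adjusted p 0.00172. Spry1, an inhibitor of the Ras to ERK pathway, read 8.89, 9.48 and 9.27 in PostDP, against 7.93, 7.94 and 8.02 in PreDP. The groups did not overlap, and the difference was 1.25 ± 0.30 (adjusted p = 0.0123, limma), or 1.12 with an adjusted p of 0.0589 without PostDP replicate 2.

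The other 4 genes were not called in this comparison. Dusp1, an immediate-early gene whose product acts in the nucleus on p38, JNK and ERK, read 12.10, 10.92 and 10.60 in PostDP, against 10.89, 9.68 and 8.80 in PreDP. The groups overlapped, since 1 PreDP array was above the lowest PostDP array, and the difference of 1.41 ± 0.65 had an adjusted p of 0.188. Spred1, which works with neurofibromin to hold Ras inactive, read 9.06, 9.51 and 9.56 in PostDP, against 8.12, 8.24 and 8.23 in PreDP. These groups lay apart, and the adjusted p of 0.262 for a difference of 1.18 ± 0.62 came from a fit whose spread included the outlying Tak1-deficient array, in which the Spred1 probe set read 6.31. Without that array the same difference had an adjusted p of 0.00173.

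Spry2, a second Sprouty, read 7.30, 7.48 and 7.63 in PostDP, against 6.77, 6.25 and 7.10 in PreDP (difference 0.76 ± 0.44, adjusted p = 0.321). Its probe set was above the array median in 8 of 15 arrays. Dusp10, a phosphatase of JNK and p38, read 10.98, 11.18 and 10.93 in PostDP, against 11.23, 11.25 and 11.48 in PreDP. Its difference of -0.29 ± 0.21 (adjusted p = 0.45) was the only one of the 9 below 0.

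Same-numbered samples of PostDP and PreDP deviated together, so a fit with the replicate number as a block was set beside this one. That fit held only these 2 groups. With the replicate block 8 of the 9 genes were called, all higher, where 11.0% of all genes tested were called as higher. A fit of the same 2 groups without the block called 6, the 5 above and Spred1 (adjusted p = 0.00363, and 0.00506 with the block). Of all genes tested, 18.9% were called in either direction in that fit and 22.8% with the block. Of these 2 fits, Dusp1 (adjusted p = 0.142 without the block and 0.00535 with it) and Spry2 (0.0598 and 0.0417) passed only in the one with the block, where Dusp10 had an adjusted p of 0.204. Dusp1 also passed in limma with array weights (difference 1.59, adjusted p = 0.0363), where 31.1% of all genes were called. Within the pairs, Dusp1 was higher in PostDP by 1.21, 1.23 and 1.80, although its levels within either group spanned over 1 unit. In each of PreDP, PostDP, SM&M1 and M2 the lowest Dusp1 array was replicate 3, at 8.80, 10.60, 10.79 and 9.95. The lowest Fos array, another immediate-early gene and one picked after its values were seen, was replicate 3 as well, at 9.37, 10.99, 11.14 and 11.53. In Tak1-deficient SM&M1 the lowest array was replicate 3 for Dusp1 (10.72) but replicate 2 for Fos (9.09). Hspa1b, also picked after its values were seen, was instead highest in replicate 3 of SM&M1 and of M2, at 12.15 and 12.2. The 17 dissociation and stress genes, which include Fos, had a summed signal of 71620 to 76990 in PostDP, against 55630 to 65440 in PreDP. Of the 15 tested, 3 were higher in PostDP (Egr1, Ier2 and Fosb) and 1 lower (Socs3), with a median of 0.16, in the main fit that called 14.9% of all genes. Fosb was named after its values were seen. These 3 higher genes are also in the list of genes induced through ERK described below. Egr1 read 13.85 ± 0.10 in PostDP and 11.16 ± 0.23 in PreDP (SD), a large part of the higher sum. The part of handling or stress in the member values was not tested.

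**Figure D2:**
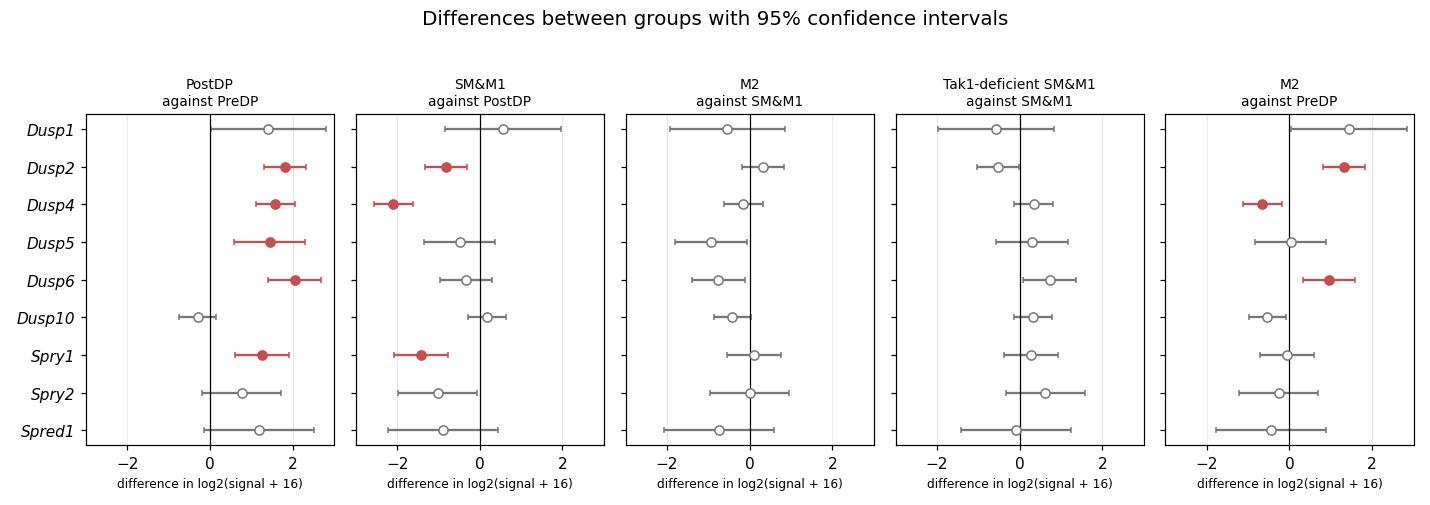
Difference between groups in log2(signal + 16) for each gene in the 5 comparisons, the first-named group minus the second; points are limma estimates, bars their 95% confidence intervals, and filled red points have an adjusted p under 0.05. Red points stand right of 0 for 5 genes in PostDP against PreDP and left of 0 for Dusp2, Dusp4 and Spry1 in SM&M1 against PostDP.

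The next step runs from double-positive to CD4SP cells. Dusp4, Spry1 and Dusp2 fell in SM&M1 against PostDP, and none of the 9 genes rose. Over all genes tested 12.0% were called in either direction and 4.14% as lower. The median difference of the 9 genes was -0.81, against 0.03 over all genes tested. PostDP came from B2m-/- mice and SM&M1 from Rag2-GFP mice, so stage and mouse line cannot be told apart here.

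Dusp4 fell to 7.45, 7.84 and 7.97 in SM&M1, against 9.73, 9.91 and 9.89 in PostDP, a difference of -2.09 ± 0.22 (adjusted p = 4.32e-05, limma). All 3 SM&M1 arrays were also under the lowest PreDP array, at 8.03. Spry1 fell to 8.27, 7.62 and 7.51 in SM&M1, against 8.89, 9.48 and 9.27 in PostDP, by -1.42 ± 0.30 (adjusted p = 0.00779). Its SM&M1 range took in the PreDP range of 7.93 to 8.02. These 2 genes kept their calls in every alternative that was run, 17 for Dusp4 and 16 for Spry1.

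Dusp2 fell to 12.35, 11.72 and 11.57 in SM&M1, against 12.57, 12.67 and 12.83 in PostDP, by -0.81 ± 0.24 (adjusted p = 0.0399, limma). The groups did not overlap, but the call held in 9 of 17 alternatives. It was lost without any 1 of the PostDP replicates 1, 2 and 3 or the SM&M1 replicates 2 and 3, with adjusted p-values of 0.075, 0.1, 0.136, 0.128 and 0.17. It was also lost with each array centred on its median (difference -0.77, adjusted p = 0.113) with no filter on dim genes (adjusted p = 0.076), and with a replicate block over these 2 groups (adjusted p = 0.0744), whose numbers do not pair the samples.

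Dusp6 and Dusp5 were not called as lower. Dusp6 read 11.35, 11.59 and 10.99 in SM&M1, inside and below the 11.41 to 11.89 of PostDP, and the difference was -0.34 with a 95% interval of -0.98 to 0.30 (adjusted p = 0.559). Dusp5 read 10.99, 11.16 and 10.50 in SM&M1, all under the lowest PostDP array at 11.26, with a difference of -0.49 and an interval of -1.36 to 0.38 (adjusted p = 0.53).

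Among the remaining members, Dusp1 read 12.26, 12.24 and 10.79 in SM&M1 and overlapped PostDP (0.56 ± 0.65, adjusted p = 0.686). Dusp10 read 11.19, 11.53 and 10.89 in SM&M1, overlapping PostDP as well (0.17 ± 0.21, adjusted p = 0.703). Spred1 read 8.51, 8.79 and 8.13 in SM&M1, all below PostDP. Its difference of -0.90 ± 0.62 had an adjusted p of 0.429, and of 0.0115 without the outlying Tak1-deficient array.

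Spry2 read 7.57, 5.72 and 6.06 in SM&M1, so that replicate 1 stood inside the PostDP range and the other 2 arrays more than 1 unit below it. The difference was -1.02 ± 0.44 (adjusted p = 0.174), and -1.58 (adjusted p = 0.0201) without SM&M1 replicate 1. The same array had the highest Spry1 of its group and one of the high myeloid marker sums, 4500 against 646.7 and 704.5 in SM&M1 replicates 2 and 3. M2 replicate 1, with a sum of 4824, had the highest Spry2 of M2 at 7.23, against 5.85 and 6.26 in the other M2 arrays, and the highest Spry1 at 8.30. Natural killer T and innate-like markers moved likewise, with a sum over 7 genes of 4636 in SM&M1 replicate 1, where its other arrays had 1165 and 945.8. That sum was also 2867 to 4491 in PreDP, but with 1 or 2 of the 7 genes above the array median, against 7 in SM&M1 replicate 1. Other arrays did not all follow the myeloid sum. Tak1-deficient replicate 3, with a sum of 6242, had the lowest Spry1 of its group at 7.56 and the highest Spry2 at 7.47. Tak1-deficient replicate 2, with a sum of 5514, had Spry1 at 8.78 and Spry2 at 6.90. PostDP had the highest Spry1 readings, 8.89 to 9.48, at myeloid sums of 724.3 to 953.1. The sort gated against NK1.1, and the part of other cells in these Sprouty readings was not tested.

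From SM&M1 to M2 none of the 9 genes was called in limma, and 2 of them, Dusp5 and Dusp6, had an unadjusted p under 0.05. Over all genes tested 2.33% were called. Dusp5 read 10.26, 10.37 and 9.23 in M2, against 10.99, 11.16 and 10.50 in SM&M1, with every M2 array below every SM&M1 array. The difference was -0.93 ± 0.40 (adjusted p = 0.418). Dusp6 read 10.76, 10.88 and 10.01 in M2, against 11.35, 11.59 and 10.99 in SM&M1, also without overlap, at -0.76 ± 0.29 (adjusted p = 0.32).

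Replicate 3 gave the lowest Dusp5 and Dusp6 reading in both groups, and same-numbered samples of M2 and SM&M1 deviated together. With the replicate block, Dusp5 (adjusted p = 0.0449), Dusp6 (adjusted p = 0.0436) and Spred1 (adjusted p = 0.0313) were called as lower in M2, and 2.72% of all genes were called as lower. The pair differences were -0.73, -0.79 and -1.27 for Dusp5 and -0.59, -0.71 and -0.98 for Dusp6. For Spred1, which read 7.72, 8.16 and 7.34 in M2 against 8.51, 8.79 and 8.13 in SM&M1, they were -0.79, -0.64 and -0.79. Without replicate 1 of both groups, a setting added after the data were seen, 0 of the 9 were called in the fit without the block.

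Dusp2 was the member furthest above 0 at this step, at 12.60, 12.29 and 11.74 in M2 against 12.35, 11.72 and 11.57 in SM&M1 (0.33 ± 0.24, adjusted p = 0.828). It was higher in M2 in all 3 pairs. Dusp1 read 11.86, 11.87 and 9.95 in M2, lower than in SM&M1 in all 3 pairs (-0.54 ± 0.65, adjusted p = 0.978), and Dusp10 read 10.70, 10.99 and 10.65, also lower in all 3 (-0.42 ± 0.21, adjusted p = 0.549). Dusp4 read 7.60, 7.73 and 7.46 in M2 and overlapped SM&M1, as did Spry1, at 8.30, 7.72 and 7.72, and Spry2. Their differences were -0.16, 0.11 and -0.0017, with intervals of -0.63 to 0.31 for Dusp4, -0.54 to 0.76 for Spry1 and -0.96 to 0.95 for Spry2.

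Set against the PreDP start, M2 cells had higher Dusp2 and Dusp6 and lower Dusp4. Of all genes tested 27.1% were called here in either direction, 14.6% as higher and 12.5% as lower, so 3 of 9 members is near the share of all genes. This comparison shares its PreDP arrays with PostDP against PreDP and also sets Rag2-GFP against B2m-/- mice. Dusp2 was higher by 1.33 ± 0.24 (adjusted p = 0.000792), with 11.74 as the lowest M2 array and 11.09 as the highest PreDP array, and was called in all 17 alternatives.

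Dusp6 was higher in M2 than in PreDP by 0.95 ± 0.29 (adjusted p = 0.0279), without overlap. The call was lost without PreDP replicate 1 (0.0701) or 3 (0.0836) or M2 replicate 1 (0.0971) or 2 (0.114), and with arrays centred on the median (0.187). Dusp4 was lower by -0.66 ± 0.22 (adjusted p = 0.0382), at 7.46 to 7.73 in M2 and 8.03 to 8.38 in PreDP. That call was lost without any 1 of PreDP replicates 1 and 2 and M2 replicates 1, 2 and 3, with adjusted p-values of 0.0593 to 0.125, and with no filter on dim genes (0.0701). Dusp5 averaged 9.95 ± 0.62 in M2 and 9.93 ± 0.15 in PreDP (SD, n = 3 each), and the 95% interval of its difference ran from -0.84 to 0.89. Spry1 averaged 7.91 ± 0.33 in M2 and 7.96 ± 0.05 in PreDP, with an interval of -0.71 to 0.60.

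The others were not called. Dusp1 was at 1.44 ± 0.65 (adjusted p = 0.126), and passed without PreDP replicate 1 (1.99, adjusted p = 0.0487) or without M2 replicate 3 (2.08, adjusted p = 0.0341). Dusp10 was at -0.54 ± 0.21 (adjusted p = 0.0727), with M2 wholly below PreDP, and passed without the outlying Tak1-deficient array (adjusted p = 0.0326). Spry2 was at -0.26 and Spred1 at -0.46, with adjusted p-values of 0.727 and 0.653.

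None of the 9 genes was called in Tak1-deficient SM&M1 against SM&M1, where 1.69% of all genes were. Dusp6 and Dusp2 had an unadjusted p under 0.05. Tak1 genotype, the absence of a stated Rag2-GFP gate and mouse line cannot be told apart in this comparison, and the outlying array belongs to it. Dusp6 read 12.36, 11.35 and 12.39 in Tak1-deficient SM&M1, against 11.35, 11.59 and 10.99 in SM&M1. Tak1-deficient replicates 1 and 3 were the highest Dusp6 readings of all 15 arrays, and replicate 2, the outlying array, lay inside the SM&M1 range. The difference was 0.72 ± 0.29 (adjusted p = 0.232).

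Without the outlying array, Dusp6 was higher by 1.06 ± 0.25 (adjusted p = 0.0426, limma), and 0.960% of all genes were called as higher. Spred1 turned with that array: it read 9.32, 6.31 and 9.54 in Tak1-deficient SM&M1, against 8.51, 8.79 and 8.13 in SM&M1, and its difference was -0.09 ± 0.62 with the array and 0.95 ± 0.25 without it (adjusted p = 0.949 and 0.0604). Dusp5 turned the other way, with 10.48, 12.27 and 10.80 in Tak1-deficient SM&M1 against 10.99, 11.16 and 10.50 in SM&M1, and a difference of 0.30 with the array and -0.24 without it (adjusted p = 0.703 and 0.727). Some of the 10 markers of thymocyte stage and sort differed in this comparison as well, and others did not. Cd8a averaged 9.63 ± 0.52 in Tak1-deficient SM&M1 and 7.79 ± 0.21 in SM&M1, Cd4 11.30 ± 0.25 in Tak1-deficient SM&M1 and 12.22 ± 0.25 in SM&M1, and S1pr1, a receptor for thymic exit, 7.12 ± 1.23 in Tak1-deficient SM&M1 and 9.65 ± 0.21 in SM&M1 (SD, n = 3 each), none with overlap. Klf2 did not overlap either, at 9.82 ± 0.26 in Tak1-deficient SM&M1 and 10.78 ± 0.30 in SM&M1. Cd3e, Rag1, Ptcra, Cd69, Ccr7 and Il7r all overlapped. Ccr7 averaged 12.75 in Tak1-deficient SM&M1 and 12.95 in SM&M1, and Il7r 13.18 and 13.25. These values include the outlying array. The summed signal of all 10 stage and sort markers was 35660 to 36890 in Tak1-deficient SM&M1, against 35960 to 44090 in SM&M1, with 9 or 10 of them above the array median in every array of both. Myeloid marker sums were 1035 and 6242 in the 2 Tak1-deficient arrays with the high Dusp6, against 646.7 to 4500 in SM&M1, and the part of these markers in the Dusp6, Dusp2 and Spred1 values was not tested.

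Dusp2 read 11.37, 11.25 and 11.42 in Tak1-deficient SM&M1, all below the lowest SM&M1 array at 11.57, and the difference was -0.53 ± 0.24 (adjusted p = 0.264). Dusp1 read 11.01, 11.84 and 10.72 in Tak1-deficient SM&M1 (-0.57 ± 0.65, adjusted p = 0.649). Dusp4 (7.57, 8.43 and 8.28), Dusp10 (11.63, 11.83 and 11.12), Spry1 (7.84, 8.78 and 7.56) and Spry2 (6.83, 6.90 and 7.47) each overlapped SM&M1, with differences of 0.34, 0.33, 0.26 and 0.62 and adjusted p-values of 0.418 to 0.651.

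Ordered by group mean, with the outlying Tak1-deficient array included, PostDP was the highest group for Dusp2, Dusp4, Dusp5, Spry1, Spry2 and Spred1. For Spred1 this rank rests on that array, at 6.31. Tak1-deficient replicates 1 and 3 read 9.32 and 9.54, inside the PostDP range of 9.06 to 9.56. Dusp4 in PostDP (9.84 ± 0.10, SD, n = 3) stood 1.59 above PreDP, the next group, and the ranges of the next 4 groups overlapped their neighbours in turn. Spry1 in PostDP (9.21 ± 0.30) stood 1.15 above the next group, Tak1-deficient SM&M1, and below that all neighbours overlapped. For Dusp6 the order was Tak1-deficient SM&M1 (12.03 ± 0.59), PostDP (11.65 ± 0.24), SM&M1 (11.31 ± 0.30), M2 (10.55 ± 0.47) and PreDP (9.60 ± 0.15). The first 3 of these overlapped in turn, and M2 overlapped neither SM&M1 nor PreDP. Tak1-deficient SM&M1 overlapped PostDP in Dusp6 only through the outlying array, at 11.35, where replicates 1 and 3 read 12.36 and 12.39. PostDP overlapped the next group for Dusp2 (M2) and for Dusp5 (Tak1-deficient SM&M1). The Dusp5 overlap came only from the outlying array, at 12.27. Tak1-deficient replicates 1 and 3, at 10.48 and 10.80, were below the lowest PostDP array at 11.26. For Dusp1, Dusp10 and Spry2 every neighbouring pair of groups overlapped.

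Dusp1, Dusp2, Dusp4, Dusp5, Dusp6 and Spry1 have 1 probe set each, so no second reading stands beside theirs. Spred1 has 8, and all 8 were higher in PostDP than in PreDP, by 0.43 to 1.19. In a fit of 21488 probe sets 7 of them were bright enough to test, and the ones next in brightness to the one used were called, at 0.88 (adjusted p = 0.0211) and 0.91 (adjusted p = 0.0232). The second of these was also called as lower in SM&M1 against PostDP (-0.93, adjusted p = 0.0261). In Tak1-deficient SM&M1 against SM&M1 the 8 probe sets ran from -0.42 to 0.72 and disagreed in sign.

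**Figure D3:**
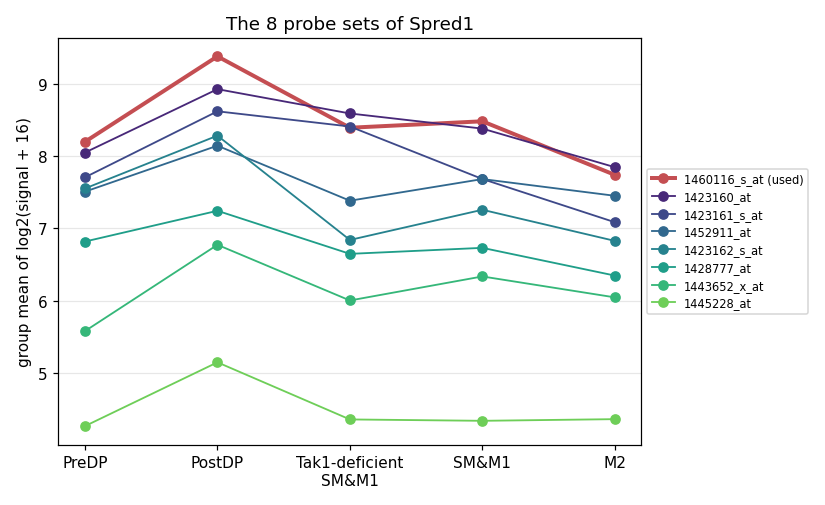
Group means of log2(signal + 16) of the 8 probe sets of Spred1 in PreDP, PostDP, Tak1-deficient SM&M1, SM&M1 and M2; each line is 1 probe set and the thick red line is the one used. With the outlying Tak1-deficient array included, all 8 lines are highest in PostDP, and they do not keep a common direction between Tak1-deficient SM&M1 and SM&M1.

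Dusp10 has 2 probe sets that disagreed in sign. The dimmer one differed by 0.22 in PostDP against PreDP (adjusted p = 0.539) and by -0.71 in Tak1-deficient SM&M1 against SM&M1 (adjusted p = 0.0723), where the one used gave -0.29 and 0.33. The second probe set of Spry2 was too dim to test and differed by 0.51 in PostDP against PreDP.

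The other genes of the pathway were read from lists chosen with earlier results of these data known. The first list holds genes known to be induced through ERK together with the factors Elk1, Elk3, Elk4 and Srf, through which ERK acts on them. In PostDP against PreDP, where 14.9% of all genes were called, 13 of its 21 tested genes were higher and 1 was lower, with a median difference of 1.32 against 0.01 over all genes tested. Srf (0.69 ± 0.18, adjusted p = 0.0177) and Cd69 (4.18 ± 0.36, adjusted p = 4.07e-06), on which these cells were sorted, are among the 13 and were named after their values were seen. The 3 furthest were Egr3 (11.35 ± 0.22 in PostDP and 6.44 ± 0.13 in PreDP), Nab2 (12.78 ± 0.16 in PostDP and 7.90 ± 0.13 in PreDP) and Egr2 (12.29 ± 0.22 in PostDP and 7.47 ± 0.43 in PreDP). Egr2 and Egr3 are zinc finger transcription factors induced by receptor signalling, and Nab2 is a corepressor that binds Egr proteins. Their adjusted p-values were 1.27e-05, 3.68e-09 and 5.54e-06.

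Of the kinases and regulators themselves, 2 of 17 tested members of the Ras to ERK list were higher in PostDP and none lower (median 0.10), out of 23 genes listed, near the 14.9% of all genes. They were the Ras GTPase-activating proteins Rasa2 (0.92 ± 0.21, adjusted p = 0.00903) and Rasal3 (0.59 ± 0.16, adjusted p = 0.0277), which return Ras to its inactive state. Of the JNK and p38 cascades, 4 of 14 tested genes were higher and none lower (median 0.21), led by the p38 isoforms Mapk11 (3.51 ± 0.19, adjusted p = 7.08e-08) and Mapk12 (2.62 ± 0.38, adjusted p = 0.000378) and the kinase Map3k5 (1.27 ± 0.25, adjusted p = 0.00357). Of 4 other dual-specificity phosphatases tested, Dusp3 was higher (0.81 ± 0.23, adjusted p = 0.0322). Spred2, the single other Sprouty or Spred gene bright enough to test of 4, was higher too (0.97 ± 0.17, adjusted p = 0.00122), at 11.38 ± 0.05 in PostDP and 10.41 ± 0.07 in PreDP.

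**Figure D4:**
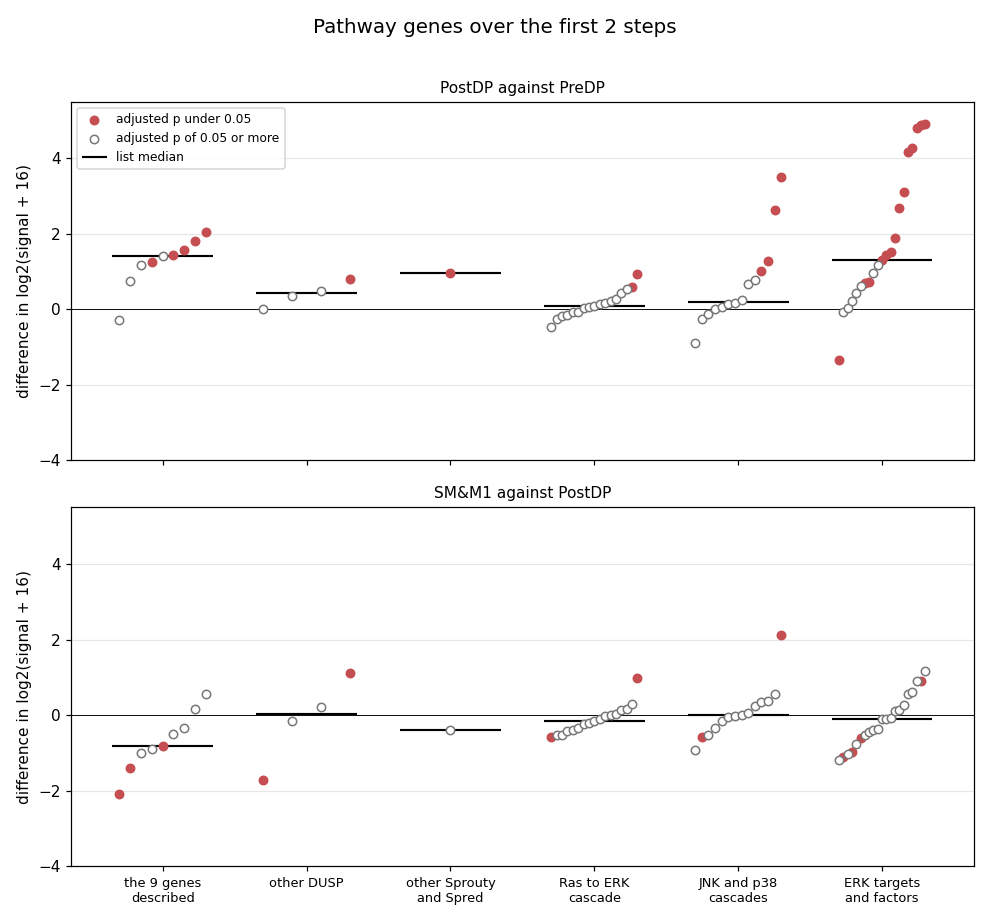
Differences in log2(signal + 16) of the 9 genes and of 5 lists of related genes, above for PostDP against PreDP and below for SM&M1 against PostDP; each point is 1 gene, red points have an adjusted p under 0.05 and the bar is the median of the list. In the upper panel 13 genes of the ERK target and factor list are red above 0 and the Ras to ERK list has its median at 0.10.

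In SM&M1 against PostDP, where 12.0% of all genes were called, 1 of the 21 genes of the first list was higher and 3 were lower, with a median of -0.11. Id3, an inhibitor of E proteins, was lower by -1.12 ± 0.22 (adjusted p = 0.00444), Nab2 by -0.98 ± 0.20 (adjusted p = 0.006), and Ier5 was higher by 0.90 ± 0.20 (adjusted p = 0.0109). Map2k1, the ERK kinase, was higher (0.98 ± 0.21, adjusted p = 0.00777) and Rasgrp1, the exchange factor that loads Ras in T cells, was lower (-0.57 ± 0.14, adjusted p = 0.0152), the 2 calls among 17 of the Ras to ERK list. The JNK and p38 list gave Mapkapk3 as higher (2.13 ± 0.23, adjusted p = 5.9e-05) and Map2k3 as lower (-0.57 ± 0.14, adjusted p = 0.0144).

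Phosphatases outside the 9 moved in opposite directions at that step. Dusp16, a phosphatase of JNK and p38, was lower in SM&M1 than in PostDP by -1.72 ± 0.40 (adjusted p = 0.0131), and lower again in M2 than in SM&M1, at 5.67 ± 1.16 in M2 and 7.57 ± 0.14 in SM&M1 (adjusted p = 0.0239). Dusp22 was higher in SM&M1 than in PostDP by 1.10 ± 0.17 (adjusted p = 0.00076). In M2 against PreDP, where 27.1% of all genes were called, Dusp16 was lower by -3.12 ± 0.40 (adjusted p = 5.3e-05), and the other 3 phosphatases tested were higher, among them Dusp22 (0.86 ± 0.17) and Dusp3 (0.75 ± 0.23).

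Lower in M2 than in SM&M1 were 3 of the 21 genes of the first list, Etv5 (-2.31 ± 0.39, adjusted p = 0.00798), Nab2 (-1.15 ± 0.20, adjusted p = 0.00903) and Nr4a1 (-1.15 ± 0.16, adjusted p = 0.00199). In that comparison 2.33% of all genes were called in either direction. None of the 21 was higher, and the p38 gene Mapk11 was lower as well (-1.38 ± 0.19, adjusted p = 0.00211). In M2 against PreDP, where 27.1% of all genes were called, 12 of the 21 were higher and 1 lower, with a median of 1.67 against 0.05 over all genes tested. Of the JNK and p38 list 5 of 14 were higher and 2 lower, and of the Ras to ERK list 1 of 17, Braf, was lower (-0.61 ± 0.21, adjusted p = 0.0439). Of the 15 tested dissociation and stress genes 5 were higher in M2 and none lower (median 1.05), with sums of 72950 to 78470 in M2, against 55630 to 65440 in PreDP.

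In Tak1-deficient SM&M1 against SM&M1, where 1.69% of all genes were called, 3 of the 21 genes of the first list were lower and none higher. Jun, a component of AP-1, read 6.67 ± 0.45 in Tak1-deficient SM&M1 and 10.51 ± 0.53 in SM&M1 (adjusted p = 0.028), and Ier5 and Phlda1 were lower by -1.16 ± 0.20 and -0.86 ± 0.20 (adjusted p = 0.0136 and 0.0482). Of 15 tested dissociation and stress genes 5 were lower, Jun among them, and the summed signal of the 17 genes of that list was 39320 to 48390 in Tak1-deficient SM&M1, against 68800 to 72320 in SM&M1. The part of handling in these values was not tested. No gene of the Ras to ERK list was called, and Map3k7 was the single call of the JNK and p38 list.

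For each of the 5 genes that were called, the 3 genes with the most similar levels over the 15 arrays were found by Pearson correlation of log2 values. The arrays share 5 groups, so these values mostly describe group means. Dusp6 was most like the transferrin receptor gene Tfrc (r = 0.955), Trio (r = 0.949) and Nol9 (r = 0.944), and over the stages PreDP, PostDP, SM&M1 and M2 the Tfrc means were 10.36, 11.81, 11.76 and 10.95, with 12.06 in Tak1-deficient SM&M1. Dusp4 was most like Hspa4l (r = 0.948), Mpp4 (r = 0.935) and Lmo4 (r = 0.906). Spry1 was most like Mpp4 (r = 0.858) and Lmo4 (r = 0.843) too, then Arhgef2 (r = 0.824), and the Mpp4 means over the same stages were 6.03, 9.95, 4.93 and 5.15.

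Dusp5 was most like Fhl2 (r = 0.925), Usp10 (r = 0.921) and Arhgef2 (r = 0.899), and the Fhl2 means over PreDP, PostDP, SM&M1 and M2 were 6.95, 9.15, 7.88 and 6.61. Dusp2 was most like Zfp36l2 (r = 0.918), which encodes an RNA-binding protein, 4930453N24Rik (r = 0.896) and Robo1 (r = 0.845). The Zfp36l2 means over these stages were 11.77, 12.99, 12.64 and 13.04.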

How the data were processed

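RNA of 15 sorted thymocyte samples was hybridised to Affymetrix arrays after single-round amplification, per the labels' protocols. The authors deposited linear signal intensity for 45101 probe sets; the algorithm is not given in the sources used here, and each array has a trimmed mean of 500 (2% trimmed at each end), so the arrays shared a scale already. No further normalization was applied. The platform annotation gave 34945 probe sets 1 gene, 932 several and 9160 none, 64 were controls, and 34741 took a current symbol from RefSeq (GRCm38.p6). Each of 18193 genes was read from its probe set with the highest mean, as log2(intensity + 16), and the 11871 above the array median (50th percentile) in at least 3 arrays were tested with limma 3.58.1 (R 4.3.3): 1 mean per group, 10 residual degrees of freedom, two-sided moderated tests, Benjamini-Hochberg adjustment per comparison, calls at an adjusted p under 0.05. Errors are SEs of the fit or SDs over 3 arrays. The number of arrays limits the precision.

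The members, lists, naming rule (all members; at most 3 called genes per list and comparison; the 3 most similar genes per called member) and tests were chosen with earlier results of these data known. Replicate numbers are from the labels. Deviations from group means of same-numbered samples correlated at 0.339, 0.275 and 0.411 between PostDP and PreDP, and at 0.553, 0.436 and 0.326 between M2 and SM&M1, so the numbers were taken to pair these samples; no other comparison had all 3 pairs over 0.1. Alternatives were fits of only the groups compared, with or without a replicate block, other filters, quantile normalization, median centring, the mean of all probe sets, pseudocount 1, trend and robust eBayes, array weights, and arrays left out in turn. Scripts were tested on simulated data.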

Additional observations from a re-analysis of the deposited data

How the results depend on the processing

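No member changed its direction under any alternative run in a comparison in which it was called. With the replicate block, the count of called members went to 8 for PostDP against PreDP and to 3 for M2 against SM&M1, from 5 and 0, and with array weights it went to 5 for M2 against PreDP, from 3; fits of only the groups compared without the block gave 6, 0 and 4, and the cause of the rest was not tested. The block's other calls, in comparisons whose numbers pair no samples, were 3 for SM&M1 against PostDP (Spred1 gained, at an adjusted p of 0.0484, and Dusp2 lost), 0 for the Tak1 comparison and 4 for M2 against PreDP. Leaving out 1 array at a time gave 3 to 6 called members for PostDP against PreDP (3 without PostDP replicate 2), 2 to 4 for SM&M1 against PostDP, 0 for M2 against SM&M1, 0 to 1 for the Tak1 comparison (1 without Tak1-deficient replicate 2) and 1 to 4 for M2 against PreDP (1 without M2 replicate 1 or 2). The share of all genes called moved with these settings too. For PostDP against PreDP it was 14.9% in the main fit, 18.9% with only the groups compared, 22.8% with the block and 31.1% with array weights. It was 9.86% to 12.5% without 1 of the compared arrays and 25.2% without Tak1-deficient replicate 2. For SM&M1 against PostDP these last values were 7.34% to 8.63% and 23.0%, from 12.0%. Centring arrays on their median moved the median difference of all genes to -0.13 for PostDP against PreDP and to -0.103 for M2 against PreDP, from 0.01 and 0.05, and left 5 and 2 members called. Dim probe sets limit Spry2 most.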
